A study of Mus musculus with 6 samples.

Results

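Prostaglandins and leukotrienes are signalling lipids made from arachidonic acid, and the 10 genes described here encode their main enzymes and one receptor: Ptgs1, Ptgs2, Ptges, Hpgd, Ptger4, Alox5, Alox5ap, Alox15, Ltc4s and Lta4h. They were listed by name, and all 10 were found among the 35434 genes of the deposited table. The series holds 6 RNA-seq libraries of mouse large intestine, 3 titled int 3 and 3 titled int 2. The study took large intestine from mice with inflammatory bowel disease (IBD) that had received either control regulatory T cells (Tregs, cells that restrain immune responses) or Tregs exposed to lenvatinib, an inhibitor of several receptor tyrosine kinases. The labels do not tell which title stands for which transfer, nor give the strain, age, the way the disease was induced or whether the samples of a group came from separate animals. All groups therefore carry the disease and a Treg transfer, differences are given as int 3 minus int 2 with no treatment assigned, and p-values measure the spread between these libraries, which may be technical.

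Cyclooxygenases turn arachidonic acid into prostaglandin H2, which terminal synthases convert to the separate prostaglandins. In the intestine prostaglandin E2 supports epithelial repair and blood flow, and it also takes part in inflammation. It is taken up from the tissue and inactivated by an epithelial dehydrogenase. Leukotrienes arise on a second branch, in which a lipoxygenase and its helper protein make leukotriene A4, and this is turned into either the neutrophil attractant leukotriene B4 or the cysteinyl leukotrienes. Tuft cells, a rare chemosensory epithelial type, are among the cells known to make cysteinyl leukotrienes in the mouse intestine.

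The promoters of the genes at either end of prostaglandin E2 turnover are shown because these genes moved in opposite directions, as given further on. Each is a RefSeq window of build GRCm38.p6, from 250 bases before to 50 bases after the annotated start, read 5′ to 3′ on the strand of the gene. RefSeq windows were at hand for 8 of the 10 genes. Capitals mark matches, on either strand, to TATAAA (the TATA box), CACGTG (an E-box), CGTCA (the core of the cyclic AMP response element), TTGCGCAA (a C/EBP palindrome) and GGGCGG (the GC box). CGTCA and CACGTG share bases in Ptgs2. The interferon-stimulated response element and the NF-kB consensus were searched as well and were in none of the 8 windows.
Ptgs2 (chr1:150099781-150100080, plus strand): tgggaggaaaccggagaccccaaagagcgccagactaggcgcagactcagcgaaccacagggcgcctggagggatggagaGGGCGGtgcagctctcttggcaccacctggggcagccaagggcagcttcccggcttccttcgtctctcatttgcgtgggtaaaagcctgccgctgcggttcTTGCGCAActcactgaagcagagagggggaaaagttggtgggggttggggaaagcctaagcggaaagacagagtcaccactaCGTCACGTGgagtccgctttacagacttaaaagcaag
Ptgs1 (chr2:36230176-36230475, plus strand): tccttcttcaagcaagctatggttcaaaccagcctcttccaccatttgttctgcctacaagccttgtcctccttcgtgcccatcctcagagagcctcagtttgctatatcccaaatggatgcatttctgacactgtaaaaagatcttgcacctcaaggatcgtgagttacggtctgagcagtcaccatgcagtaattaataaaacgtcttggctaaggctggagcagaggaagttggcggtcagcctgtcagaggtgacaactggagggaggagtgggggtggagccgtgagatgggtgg
Ptges (chr2:30903248-30903547, minus strand): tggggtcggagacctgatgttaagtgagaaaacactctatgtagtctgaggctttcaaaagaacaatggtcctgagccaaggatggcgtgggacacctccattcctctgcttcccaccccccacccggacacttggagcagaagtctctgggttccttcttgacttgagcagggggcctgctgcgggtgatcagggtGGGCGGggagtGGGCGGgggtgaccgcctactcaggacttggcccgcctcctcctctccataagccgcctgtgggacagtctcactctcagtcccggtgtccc
Hpgd (chr8:56294302-56294601, plus strand): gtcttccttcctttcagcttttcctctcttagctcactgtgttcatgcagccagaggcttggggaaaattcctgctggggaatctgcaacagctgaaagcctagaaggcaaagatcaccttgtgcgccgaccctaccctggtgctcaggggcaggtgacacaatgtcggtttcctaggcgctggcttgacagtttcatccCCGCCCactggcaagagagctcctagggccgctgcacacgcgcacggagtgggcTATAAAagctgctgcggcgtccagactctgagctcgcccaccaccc

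The Ptgs2 window held 4 of the motifs. TTGCGCAA lay at -69 to -62 from the annotated start, and 0.183% of all 32851 promoter windows hold it. CGTCA at 14 to 18 and CACGTG at 17 to 22 were found in 20.8% and 7.15% of all windows. A GC box, present in 35.7% of all windows, lay at -170 to -165. The Ptgs1 window had no match to any of them, so the windows of the paired cyclooxygenase genes share none of these letters. Ptges carried GC boxes at -53 to -48 and -42 to -37. Hpgd had TATAAA at 5 to 10, a match that 13.6% of all windows hold, and a GC box on the other strand at -50 to -45. This TATAAA lay after the annotated start. The end of the Hpgd window was in no GENCODE transcript of the gene, unlike the other windows shown, so its annotated start is uncertain. The interferon-stimulated response element and the NF-kB consensus were found in 3.44% and 4.51% of all windows. These matches describe the letters and were not tested as binding sites.

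The libraries were alike in depth, and they differed in how far they lay apart within a group. Levels are in FPKM, which divides a gene's fragments by its length and by the depth of the library. Their steps gave library totals of 34.0 to 35.1 M fragments (M, mega) in int 3 and 34.2 to 34.4 M in int 2. Over the tested genes, the log2 difference between any pair of libraries of a group had an SD of 0.271 to 0.513 in int 3 and of 0.110 to 0.115 in int 2. Hoxb13, a homeobox gene expressed in the distal large intestine, stood at 146, 16.4 and 267 FPKM over int 3-1, int 3-2 and int 3-3, and at 288, 285 and 288 FPKM in the int 2 libraries. The labelled tissue carried its defining markers. The epithelial gene Epcam stood at 595 to 684 FPKM in int 3 and 681 to 700 FPKM in int 2, and of 10 epithelial markers 0 passed the test between the groups, with a summed level of 4379 to 5428 FPKM in int 3 and 4839 to 4875 FPKM in int 2.

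Both cyclooxygenases and the prostaglandin E2 synthase Ptges were higher in int 3 and the dehydrogenase Hpgd was lower, while on the leukotriene branch Alox5 and Ltc4s were lower. The test was limma on log2(FPKM + 1), for genes that reached 1 FPKM in 3 libraries or more. A gene is said to have risen or fallen where its adjusted p was under 0.05. Of the 10 genes 9 could be tested. Ptgs2, Ptges and Ptgs1 rose, Alox5, Hpgd and Ltc4s fell, and Lta4h, Alox5ap and Ptger4 did not pass. Among all 12525 tested genes 15.3% passed, 8.64% higher and 6.70% lower in int 3. The share of passing genes that were higher depended on scaling, at 56.3% in the deposited FPKM, 67.2% after rescaling the libraries to equal sums, 51.4% with median-of-ratios scaling and 48.5% with quantile normalization. The median log2 change of all tested genes was 0.03, and that of the 9 tested members was -0.09. Values of int 3 and int 2 did not overlap for 7 of the 10 members, which also held for 40.4% of all tested genes. Alox5 entered the test through its int 2 values alone, so it could hardly have passed the filter without differing.

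**Figure D1:**
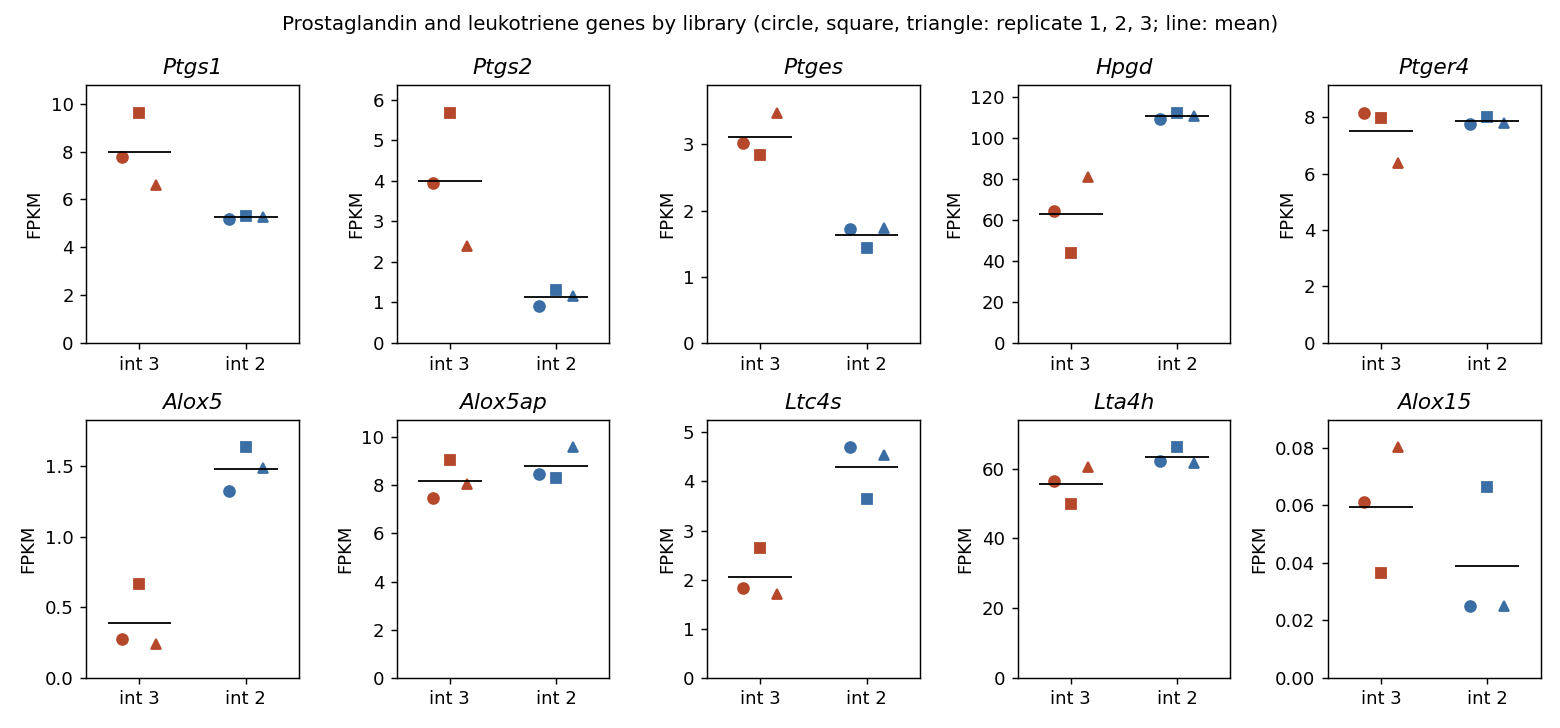
FPKM of the 10 genes in each library, with int 3 on the left and int 2 on the right of each panel. Symbols mark the replicate number and the line is the group mean. Ptgs1, Ptgs2 and Ptges lie higher in all 3 int 3 libraries, and Hpgd, Alox5, Ltc4s and Lta4h lie lower, while Ptger4, Alox5ap and Alox15 overlap.

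Ptgs2, the inducible cyclooxygenase, had the largest rise of the members. Its level was 3.94, 5.68 and 2.39 FPKM across int 3-1, int 3-2 and int 3-3, against 0.918, 1.31 and 1.16 FPKM in int 2-1, int 2-2 and int 2-3. The lowest int 3 library stood above the highest int 2 library, and int 3-2 was the highest of all. The group means were 4.0 ± 1.64 FPKM in int 3 and 1.13 ± 0.198 FPKM in int 2 (SD, n = 3 libraries each), a 3.55-fold ratio. Ptgs2 rose by 1.18 on the log2(FPKM + 1) scale (SE 0.24, adjusted p = 0.0238), where the added 1 makes changes at low levels look smaller. The values rested on 589, 847 and 368 fragments in int 3 and 138, 198 and 173 in int 2. In whole tissue, a change in the number of cells of a type and a change in RNA per cell cannot be told apart. The Ptgs2 promoter is the one shown with the C/EBP palindrome, and a part of this motif in the rise was not tested.

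Ptgs1, the constitutive cyclooxygenase, stood at 7.78, 9.63 and 6.60 FPKM across int 3-1, int 3-2 and int 3-3, against 5.18, 5.32 and 5.27 FPKM in the int 2 libraries. The groups did not overlap, and the int 2 libraries lay close together. Ptgs1 rose, with means of 8.0 ± 1.53 FPKM in int 3 and 5.26 ± 0.0741 FPKM in int 2 (SD, n = 3 each, log2 change 0.51, SE 0.12, adjusted p = 0.0395). Both isozymes were ordered alike within int 3, highest in int 3-2 and lowest in int 3-3. The ratio of Ptgs2 to Ptgs1 FPKM, a ratio of levels per length, was 0.506, 0.590 and 0.363 in int 3 and 0.177, 0.246 and 0.219 in int 2. Ptgs1 therefore stayed above Ptgs2 in all 6 libraries.

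Ptges, the inducible terminal synthase that makes prostaglandin E2, was the most even across int 3 of the members that rose. It stood at 3.02, 2.84 and 3.48 FPKM across int 3-1, int 3-2 and int 3-3, against 1.73, 1.44 and 1.74 FPKM in the int 2 libraries. Every int 3 library lay above every int 2 library, and here int 3-3 was the highest. The means were 3.11 ± 0.331 FPKM in int 3 and 1.64 ± 0.170 FPKM in int 2 (SD, n = 3 each, log2 change 0.64, SE 0.09, adjusted p = 0.00727). Ptges kept an adjusted p under 0.05 with each library left out in turn, from 0.00414 to 0.0423.

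Hpgd, the dehydrogenase that inactivates prostaglandin E2, had the highest FPKM of the members in every library except int 3-2, where Lta4h was higher. Its level was 64.6, 44.1 and 81.1 FPKM across int 3-1, int 3-2 and int 3-3, against 109, 113 and 111 FPKM in the int 2 libraries. All int 3 libraries lay below the int 2 range, with int 3-2 lowest and int 3-3 nearest to int 2. The means were 63.3 ± 18.5 FPKM in int 3 and 111 ± 1.62 FPKM in int 2 (SD, n = 3 each), and Hpgd fell by 0.84 on the log2 scale (SE 0.20, adjusted p = 0.0408). The ratio of Ptges to Hpgd FPKM was 0.0468, 0.0643 and 0.0429 in int 3 and 0.0158, 0.0128 and 0.0157 in int 2. The synthase thus remained far below the dehydrogenase in every library, and less so in int 3.

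**Figure D2:**
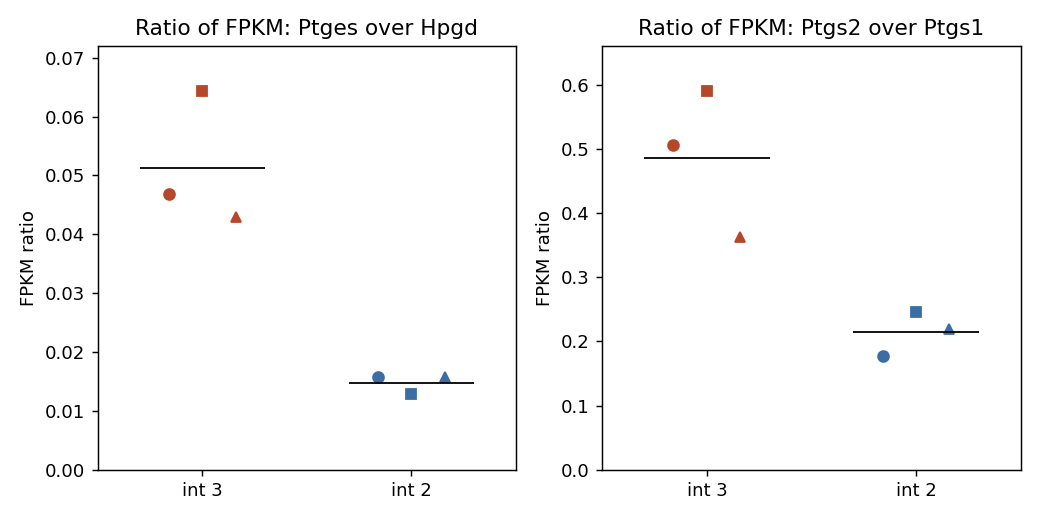
Ratio of FPKM per library for Ptges over Hpgd and for Ptgs2 over Ptgs1, with int 3 left of int 2 and the line at the group mean. Ptges over Hpgd is 0.0429 to 0.0643 in int 3 and 0.0128 to 0.0158 in int 2, and Ptgs2 over Ptgs1 is 0.363 to 0.590 in int 3 and 0.177 to 0.246 in int 2.

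Markers of stromal cell types did not move one way. Of 7 fibroblast markers 4 rose and 3 did not pass (513 to 587 FPKM in int 3, 467 to 469 FPKM in int 2). All 3 tested mesothelial markers rose, with sums of the 5 listed at 8.0 to 13.0 FPKM in int 3 and 1.70 to 2.15 FPKM in int 2, but Upk3b and Upk1b met the filter through int 3 alone. Of 7 endothelial markers 1 rose (54.9 to 113 FPKM in int 3, 46.9 to 47.9 FPKM in int 2), and their sum was highest in int 3-2 and lowest in int 3-3, as for Ptgs2 and Ptgs1. Of 7 smooth muscle markers 2 fell (3279 to 3848 FPKM in int 3, 4070 to 4082 FPKM in int 2). Of 1 tested platelet marker 0 passed (13.9 to 16.2 FPKM in int 3, 14.0 to 16.2 FPKM in int 2). That marker, Pf4, carried most of the sum, with means of 13.25 FPKM in int 3 and 14.62 FPKM in int 2. Gp1bb, below the filter, averaged 1.116 FPKM in int 3 and 0.317 FPKM in int 2. Gp5, also below it and with at most 4 fragments, was higher in int 3 too. Neither overlapped between the groups, as 40.4% of all tested genes did not. Pf4, Ppbp, Itga2b and Gp9 overlapped. The part of these cell types in the changes of Ptgs2, Ptgs1, Ptges and Hpgd was not tested.

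Ptger4, which encodes the prostaglandin E2 receptor EP4, did not pass the test. It stood at 8.16, 7.98 and 6.37 FPKM across int 3-1, int 3-2 and int 3-3, against 7.76, 8.01 and 7.80 FPKM in the int 2 libraries. The int 3 values lay on both sides of the int 2 values. Its log2 change was -0.07 (SE 0.09, adjusted p = 0.662).

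Alox5, the lipoxygenase that opens the leukotriene branch, was at 0.273, 0.662 and 0.239 FPKM across int 3-1, int 3-2 and int 3-3, against 1.32, 1.63 and 1.49 FPKM in the int 2 libraries. Even the highest int 3 library had less than the lowest int 2 library. The means were 0.391 ± 0.235 FPKM in int 3 and 1.48 ± 0.156 FPKM in int 2 (SD, n = 3 each), and Alox5 fell by 0.85 on the log2 scale (SE 0.13, adjusted p = 0.0106). These levels rested on 29, 70 and 26 fragments in int 3 and 141, 175 and 158 in int 2. The 95% Poisson interval, which covers counting error alone, was 54.6 to 88.4 fragments for the highest int 3 library and 119 to 166 for the lowest int 2 library. With voom on the whole fragments, an alternative added after the data were seen, the log2 change was -2.06 (adjusted p = 0.0133). Both fits used the filter that Alox5 met through int 2 alone, which favoured a fall.

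Alox5ap, the helper protein that presents arachidonic acid to that lipoxygenase, did not pass the test. Its level was 7.46, 9.07 and 8.07 FPKM across int 3-1, int 3-2 and int 3-3, against 8.49, 8.30 and 9.58 FPKM in the int 2 libraries. The groups overlapped, and the log2 change was -0.09 (SE 0.09, adjusted p = 0.51). The ratio of Alox5ap to Alox5 FPKM was 27.3, 13.7 and 33.8 in int 3 and 6.41, 5.08 and 6.44 in int 2.

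Ltc4s, the synthase of leukotriene C4, was at 1.84, 2.64 and 1.71 FPKM across int 3-1, int 3-2 and int 3-3, against 4.70, 3.64 and 4.55 FPKM in the int 2 libraries. The ranges did not overlap, and int 3-2 was again the highest of its group, as for Alox5. Means of 2.06 ± 0.504 FPKM in int 3 and 4.29 ± 0.572 FPKM in int 2 (SD, n = 3 each) gave a log2 change of -0.80 (SE 0.14, adjusted p = 0.0152). The counts behind it were 44, 63 and 42 fragments in int 3 and 113, 88 and 109 in int 2.

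Lta4h, the hydrolase that makes leukotriene B4, stood at 56.5, 49.9 and 60.5 FPKM across int 3-1, int 3-2 and int 3-3, against 62.2, 66.1 and 61.7 FPKM in the int 2 libraries. The highest int 3 library lay just below the lowest int 2 library, and the difference did not pass (log2 change -0.19, SE 0.08, adjusted p = 0.162). It passed without int 3-3 (adjusted p = 0.0315) and with library weights (adjusted p = 0.000431). Those fits called 4913 and 9221 of the 12525 tested genes, against 1921 in the main fit. Lta4h was the more abundant of the enzymes at this branch point, with 30.8, 18.9 and 35.5 times the FPKM of Ltc4s in int 3 and 13.2, 18.2 and 13.6 times in int 2. Alox15, a lipoxygenase that in the mouse makes mainly the 12-hydroperoxide of arachidonic acid, had the lowest FPKM of the members, at 0.0613, 0.0365 and 0.0802 FPKM in int 3 and 0.0248, 0.0664 and 0.0249 FPKM in int 2. It was counted in 32, 19 and 43 fragments in int 3 and 13, 35 and 13 in int 2, overlapped between the groups, and was below the FPKM filter. The length behind its FPKM was 15291 bases, against 3109 for Alox5, which had 29, 70 and 26 fragments in int 3.

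Tuft cell markers were lower in sum in int 3, as Alox5 and Ltc4s were. Among the other tested members Hpgd fell too, Ptgs2, Ptges and Ptgs1 rose, and Lta4h, Alox5ap and Ptger4 did not pass. The summed level of 10 tuft cell markers was 5.26, 7.10 and 2.38 FPKM across int 3-1, int 3-2 and int 3-3, against 11.3, 11.7 and 11.1 FPKM in the int 2 libraries. Of 5 tested markers 2 fell, 0 rose and 3 did not pass, and both that fell, Trpm5 and Rgs13, met the filter through int 2 alone. Trpm5, the cation channel of tuft cells, stood at 0.253, 0.676 and 0.0682 FPKM in int 3 and 1.44, 1.29 and 1.19 FPKM in int 2 (log2 change -0.82, adjusted p = 0.0256). Rgs13 stood at 0.445, 0.724 and 0.135 FPKM in int 3 and 2.62, 2.91 and 2.71 FPKM in int 2 (log2 change -1.40, adjusted p = 0.00331). Dclk1, Avil and Sh2d6 did not pass, Ly6g6f was at 0 throughout and Il25 was at 0 in int 3. Below the filter, Pou2f3, Gnat3 and Hmx2 averaged 0.226, 0.042 and 0.198 FPKM in int 3 and 0.618, 0.571 and 0.428 FPKM in int 2. None of these overlapped between the groups, as 40.4% of all tested genes did not, while Avil, Il25 and Ly6g6f overlapped. The part of tuft cells in the changes of Alox5 and Ltc4s was not tested.

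**Figure D3:**
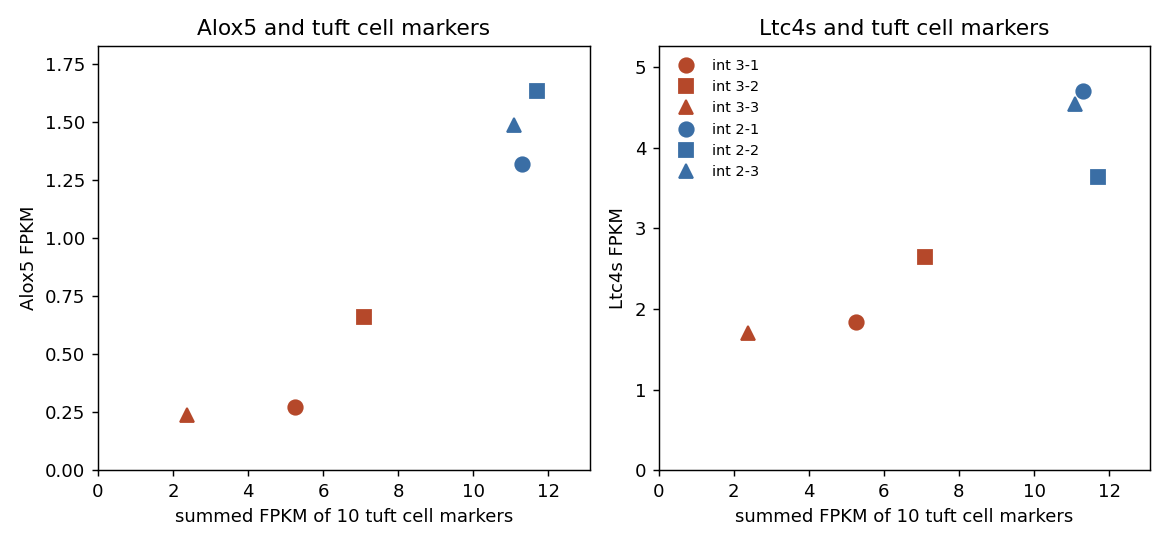
FPKM of Alox5 (left) and Ltc4s (right) against the summed FPKM of 10 tuft cell markers, 1 point per library. The int 2 libraries lie at marker sums of 11.1 to 11.7 and the int 3 libraries at 2.38 to 7.10, and within int 3 the library with the highest marker sum, int 3-2, has the highest Alox5 and Ltc4s.

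Markers of other cells that can hold these enzymes also differed. Of 6 B cell markers 6 fell, with sums of 4.18 to 38.5 FPKM in int 3, lowest in int 3-2, and 130 to 136 FPKM in int 2. Of 6 T cell markers, of which Cd5 met the filter through int 2 alone, 4 fell (5.77 to 12.4 FPKM in int 3, 22.6 to 24.0 FPKM in int 2). Of 10 macrophage markers 5 rose (205 to 259 FPKM in int 3, 150 to 158 FPKM in int 2). Of 3 tested neutrophil markers 2 rose, with sums of 77.4 to 163 FPKM in int 3 and 39.8 to 40.4 FPKM in int 2, most of it from Ly6g, which did not pass. The 2 that rose, S100a8 and S100a9, met the filter through int 3 alone, and Elane was at 0. Within int 3 both were highest in int 3-2, where Ly6g was lowest. Below the filter, Csf3r, Retnlg and Ltf averaged 0.564, 0.626 and 0.639 FPKM in int 3 and 0.174, 0.0160 and 0.0461 FPKM in int 2. Camp averaged 0.210 FPKM in int 3 and 0.4705 FPKM in int 2, with at most 12 fragments. None of these overlapped, as 40.4% of all tested genes did not, while Cxcr2, Mpo and Ngp overlapped. Mast cell markers summed to 14.7 to 15.6 FPKM in int 3 and 13.3 to 13.4 FPKM in int 2, with 0 of 2 tested passing. Kit, which pacemaker cells of the gut also express, gave 8.92, 13.3 and 5.33 FPKM of that sum in int 3 and 10.1, 10.3 and 10.3 FPKM in int 2, and Ms4a2 was at most 0.0101 FPKM. Below the filter, Mcpt1 averaged 1.43 FPKM in int 3 and 0.283 FPKM in int 2, and Hdc averaged 0.896 FPKM in int 3 and 0.286 FPKM in int 2. Mcpt2 averaged 0.591 FPKM in int 3 and 0.104 FPKM in int 2, and Mcpt4 averaged 0.204 FPKM in int 3 and 0.0197 FPKM in int 2. These 4 genes did not overlap between the groups, while over all tested genes 40.4% did not. Mcpt2 was apart only narrowly, with 7 fragments in both int 3-2 and int 2-2, and Mcpt4 had at most 11 fragments. Kit, Cma1, Cpa3, Tpsb2, Fcer1a and Ms4a2 overlapped. Cma1, the other tested marker, ranged from 0.0539 to 5.23 FPKM in int 3 and from 2.1 to 2.7 FPKM in int 2 (log2 change -0.25). Eosinophil markers summed to 1.46 to 1.88 FPKM in int 3 and 1.6 to 2.57 FPKM in int 2, with 0 of 1 tested passing and Ear1 and Ear6 at 0. Ear2 was the largest single part of the sum in every library. Below the filter, Siglecf averaged 0.211 FPKM in int 3 and 0.565 FPKM in int 2, and Prg2 averaged 0.0520 FPKM in int 3 and 0.279 FPKM in int 2. Both were without overlap, as were 40.4% of all tested genes, and Prg2 rested on at most 4 fragments in int 3 and 10 in int 2. Ear2, Il5ra, Ccr3 and Epx overlapped, with Il5ra averaging 0.226 FPKM in int 3 and 0.194 FPKM in int 2. The part of these cell types in the changes of Alox5 and Ltc4s was not tested.

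**Figure D4:**
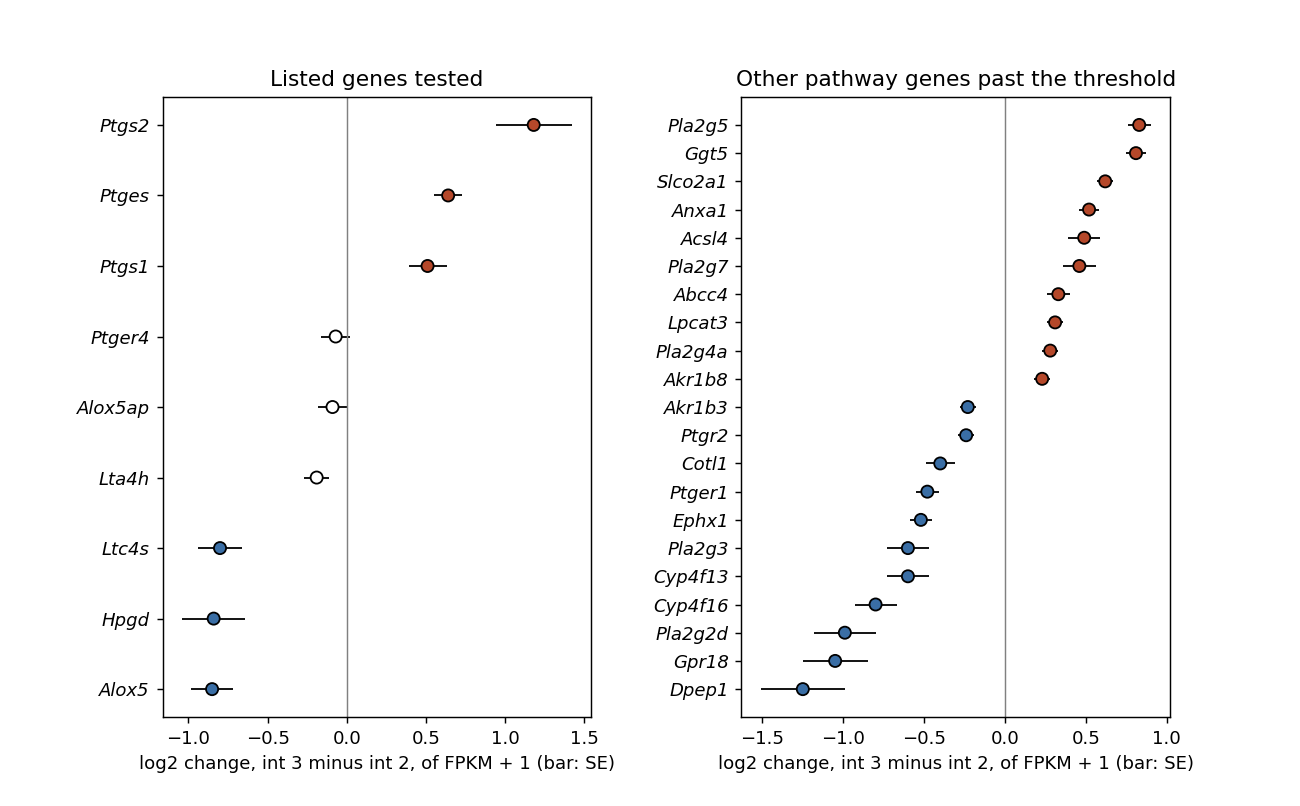
Log2 change of FPKM + 1, int 3 minus int 2, with its SE, for the 9 listed genes tested (left) and for the 21 other genes of the pathway lists past the threshold (right). Red points rose, blue points fell and white points did not pass. Ptgs2 has the largest rise on the left at 1.18, and on the right the values run from -1.25 for Dpep1 to 0.83 for Pla2g5.

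The calls rest on few libraries. Ptgs2, Ptgs1 and Hpgd missed the threshold without int 3-1 and without any single int 2 library (adjusted p = 0.0864 to 0.145). Alox5 did so without int 3-1, int 2-2 or int 2-3 (0.0578 to 0.062) and Ltc4s without int 3-1, int 2-1 or int 2-3 (0.0771 to 0.0787), with the direction kept in each case.

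Within int 3 the level in int 3-1 lay between those of int 3-2 and int 3-3 for 8 of the 10 members, a share near the 73.5% of all tested genes. Ptgs2 and Ptgs1 declined, and Hpgd and Lta4h climbed, along int 3-2, int 3-1 and int 3-3, which is the order of increasing Hoxb13. Alox5 and Ltc4s were highest in int 3-2 as well. In Hoxb13, int 3-3 was nearest to int 2 but below its range (267 against at least 285 FPKM). Its values also lay outside the int 2 range for Ptgs2 (2.39 against at most 1.31 FPKM), Ptgs1, Ptges, Hpgd (81.1 against at least 109 FPKM), Alox5 and Ltc4s. The part of gut position in these differences was not tested.

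**Figure D5:**
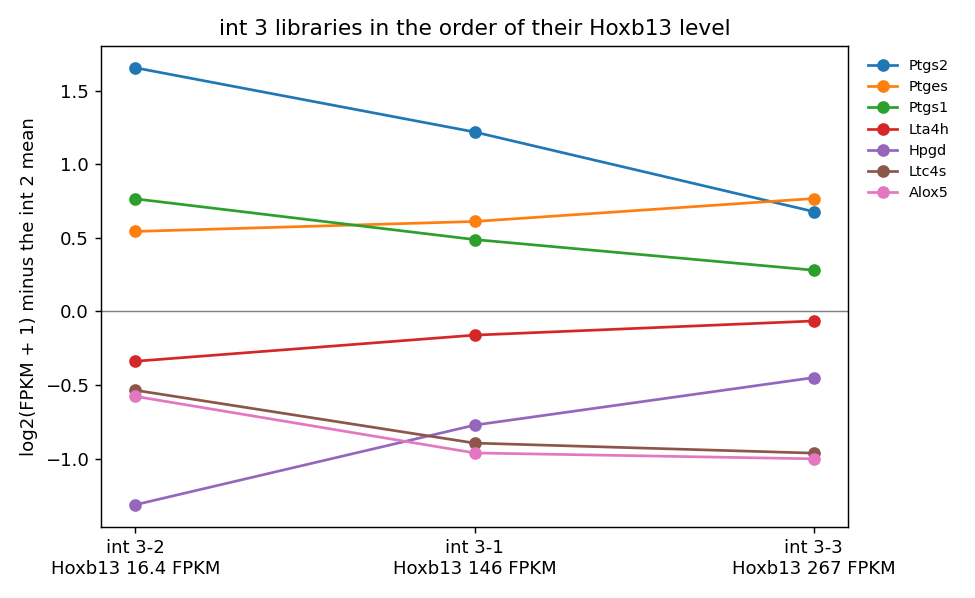
Log2(FPKM + 1) of 7 members in the 3 int 3 libraries, as the difference from the int 2 mean, with the libraries in the order of their Hoxb13 FPKM (16.4, 146 and 267). Ptgs2 and Ptgs1 decline and Hpgd and Lta4h climb toward the int 2 mean, while Ptges changes little and Alox5 and Ltc4s move away from it.

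By likeness of profile (the root mean square distance of log2 changes from the int 2 mean, over the 6 libraries), the tested genes nearest to Ptgs2 were Phf11d (0.0858), the fatty acid binding protein gene Fabp4 (0.0902) and the interferon-induced gene Ifi44 (0.0947). Fabp4 stood at 98.4, 131 and 70.4 FPKM in int 3 and 41.6, 40.9 and 43.7 FPKM in int 2. Nearest to Alox5 were the transcription factor gene Etv4 (0.0564), Derl3, a factor of protein disposal from the endoplasmic reticulum (0.076), and the kinase gene Map4k2 (0.0862). Etv4 stood at 2.98, 4.19 and 2.80 FPKM in int 3 and 6.56, 6.65 and 6.37 FPKM in int 2.

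Upstream, the phospholipases and the enzymes that load and unload arachidonic acid were mixed. Of 19 listed genes 15 were tested, 5 rose, 2 fell and 8 did not pass, with a median log2 change of 0.19. Pla2g5, a secreted phospholipase, stood at 17.1, 16.2 and 18.9 FPKM in int 3 and 8.77, 9.47 and 9.82 FPKM in int 2, and rose by 0.83 (SE 0.07, adjusted p = 0.00168). Pla2g4a, the cytosolic enzyme that frees arachidonic acid, averaged 22.1 ± 0.593 FPKM in int 3 and 18.0 ± 0.503 FPKM in int 2 (SD, n = 3 each, log2 change 0.28, adjusted p = 0.0149). Acsl4 and Lpcat3, which attach arachidonic acid to coenzyme A and to phospholipids, rose by 0.49 and 0.31, and Pla2g7, the platelet-activating factor hydrolase, rose by 0.46. The secreted phospholipases Pla2g2d and Pla2g3 changed by -0.99 and -0.60 (adjusted p = 0.0198 and adjusted p = 0.0297).

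Among 7 tested genes of other prostanoid synthases 1 rose, 1 fell and 5 did not pass, with a median of 0.00. Akr1b8, an aldo-keto reductase, rose by 0.23, and Akr1b3, a reductase that can make prostaglandin F2-alpha, changed by -0.23 (adjusted p = 0.0291 and adjusted p = 0.027). The other prostaglandin E synthase genes Ptges2 and Ptges3 did not pass. Of 8 tested genes of prostaglandin breakdown and transport 2 rose, 1 fell and 5 did not pass (median 0.06). Slco2a1, the carrier that takes prostaglandins into cells ahead of Hpgd, stood at 13.9, 13.1 and 13.5 FPKM in int 3 and 8.37, 8.37 and 8.62 FPKM in int 2, and rose by 0.62 (SE 0.05, adjusted p = 0.00113). So Slco2a1 rose and Hpgd fell in int 3, and whether the same cells hold both was not tested. The int 3 libraries of Slco2a1 lay close together. Abcc4, an exporter of prostaglandins, rose by 0.33, and Ptgr2, a reductase of prostaglandin metabolites, changed by -0.24 (adjusted p = 0.0287 and adjusted p = 0.0271).

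Of the other prostanoid receptors, 8 were listed and 3 tested, and 1 fell. Ptger1, the EP1 receptor, stood at 2.54, 2.78 and 2.70 FPKM in int 3 and 3.82, 4.29 and 4.29 FPKM in int 2 (log2 change -0.48, SE 0.07, adjusted p = 0.00782). Ptger3 (EP3) averaged 3.34 FPKM in int 3 and 3.22 FPKM in int 2, and Tbxa2r, the thromboxane receptor, averaged 2.72 FPKM in int 3 and 2.85 FPKM in int 2. Neither passed. Below the filter, Ptger2 (EP2) ranged from 0.518 to 1.53 FPKM in int 3 and from 0.608 to 0.781 FPKM in int 2, and the prostacyclin receptor gene Ptgir from 0.603 to 1.25 FPKM in int 3 and 0.624 to 0.900 FPKM in int 2. Ptgfr was at 0.162 to 0.326 FPKM in int 3 and 0.332 to 0.542 FPKM in int 2. The prostaglandin D2 receptor genes Ptgdr and Ptgdr2 were at most 0.0386 FPKM in any library. Ptger4 had the highest level of the prostaglandin E2 receptors in every library.

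Downstream of Ltc4s the enzymes that trim leukotriene C4 split. Of 11 tested genes of leukotriene synthesis and breakdown 1 rose, 4 fell and 6 did not pass, with a median of -0.34. Ggt5, which converts leukotriene C4 to D4, stood at 4.03, 4.25 and 4.08 FPKM in int 3 and 1.87, 1.94 and 1.95 FPKM in int 2, and rose by 0.81 (SE 0.06, adjusted p = 0.000885). Dpep1, a dipeptidase that converts D4 to E4, stood at 23.6, 32.6 and 14.4 FPKM in int 3 and 53.8, 56.2 and 53.8 FPKM in int 2, and fell by 1.25 (SE 0.26, adjusted p = 0.0268). Both separated the groups fully, as did 40.4% of all tested genes. Ggt1, the related transpeptidase, was below the filter at 1.11, 1.05 and 0.944 FPKM in int 3 and 0.0919, 0.103 and 0.127 FPKM in int 2, and was not tested. Cyp4f16 and Cyp4f13, of the cytochrome family that oxidises leukotriene B4, fell by 0.80 and 0.60 (adjusted p = 0.0107 and adjusted p = 0.028), with close paralogs that could share fragments. Cotl1, an actin-binding protein that also binds the Alox5 enzyme, changed by -0.40 (adjusted p = 0.0295).

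None of the 5 leukotriene receptor genes reached the filter. Cysltr1, the receptor for leukotriene D4, stood at 1.18, 1.24 and 0.886 FPKM in int 3 and 0.726, 0.689 and 0.666 FPKM in int 2. Its groups did not overlap, nor did those of 40.4% of all tested genes. Ltb4r1, the high-affinity leukotriene B4 receptor, was at 1.03, 0.766 and 0.783 FPKM in int 3 and 0.720, 0.279 and 0.542 FPKM in int 2. Cysltr2 was at 0.423 to 0.613 FPKM in int 3 and 0.345 to 0.452 FPKM in int 2, Ltb4r2 at 0.294 to 0.582 FPKM in int 3 and 0.134 to 0.304 FPKM in int 2, and Oxgr1 was listed at 0 in all 6 libraries. Of 7 tested genes of other lipoxygenases and epoxide enzymes 0 rose, 1 fell and 6 did not pass (median -0.39), and the one that fell was the epoxide hydrolase Ephx1 (log2 change -0.52, adjusted p = 0.00667).

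Among 7 listed receptors and ligands tied to the resolution of inflammation, 2 were tested, the ligand Anxa1 and the receptor Gpr18. Anxa1, a protein that dampens arachidonic acid release, averaged 159 ± 10.9 FPKM in int 3 and 111 ± 1.81 FPKM in int 2 (SD, n = 3 each) and rose by 0.52 (adjusted p = 0.00439). Gpr18 stood at 0.720, 0.268 and 0.841 FPKM in int 3 and 2.34, 1.69 and 2.98 FPKM in int 2 and changed by -1.05 (adjusted p = 0.0181). Gpr18 met the filter through its int 2 values alone. Fpr2, a receptor for annexin and lipoxin, was below the filter at 0.769, 0.930 and 0.836 FPKM in int 3 and 0.0900, 0.269 and 0.136 FPKM in int 2. Cmklr1 ranged from 0.849 to 1.80 FPKM in int 3 and 0.622 to 0.884 FPKM in int 2, Fpr1 from 0.0431 to 0.311 FPKM in int 3 and 0.0220 to 0.0443 FPKM in int 2, and Lgr6 was low in both groups. Over all lists 53 genes were tested, of which 10 rose, 11 fell and 32 did not pass, with a median of -0.01. Among all tested genes 8.64% rose and 6.70% fell, with a median of 0.03. The calls of Pla2g5, Slco2a1, Ggt5, Ephx1 and Anxa1 were kept with each library left out. Of the 21 calls 15 were lost without int 3-1, 14 without int 2-1, 15 without int 2-2 and 14 without int 2-3, and 0 without int 3-2 or int 3-3.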

How the data were processed

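Per the labels' protocols, RNA was extracted with TRIzol. What the authors deposited is a table of FPKM values, and the unit was taken from its name and values. The submitters' processing notes name the build GRCm39. Aligner, counting tool, annotation and use of strand are not given in the sources used here. In GENCODE M21, of another build, Ptgs1, Ltc4s, Alox5ap and Ptger4 overlap genes on the opposite strand and Ptges and Hpgd on the same one, so their fragments cannot be told apart from those of these partners.

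For int 3 minus int 2, log2(FPKM + 1) was modelled in limma 3.58.1 (R 4.3.3, with lmFit and a two-sided eBayes test with trend) over 12525 genes at FPKM 1 or more in 3 libraries, with Benjamini-Hochberg adjustment. The code was tested on simulated data. Whole fragments were recovered from FPKM steps for 100% of tested genes (tolerance 0.002 fragments). Genes named were the members, passing pathway genes whose groups did not overlap, all listed receptors, and 3 profile neighbours of the largest riser and faller; others were chosen after their values were seen. Members, 8 pathway lists and 13 marker lists were chosen with earlier results of these data known. Alternatives were pseudocounts of 0.1 and 0.01, other filters and scalings, a replicate block, library weights, a robust prior, voom, int 2 averaged, and leaving out each library.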

Additional observations from a re-analysis of the deposited data

How the results depend on the processing

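Direction was kept for the 9 tested members under every alternative, except that Ptger4, which did not pass, changed by 0.0498 with library weights and by -0.122 to 0.0348 with 1 library left out. Over all genes, against 1921 called, 889 were called with the replicate block, 9221 with library weights (an estimate that stopped before converging) and 615 to 4913 with 1 library left out. The members called higher, 3 in all, became 1 without a filter, 1 at a mean FPKM of 5 or more (which leaves 5 members to test) and 1 to 3 with 1 library left out. Without a filter Ptgs2 and Ptgs1 missed the threshold (adjusted p = 0.0565 and adjusted p = 0.0787), as did Hpgd (adjusted p = 0.0837). The members called lower, also 3, became 1 at that mean FPKM, 1 with the replicate block, 5 with library weights and 0 to 4 with 1 library left out. With median-of-ratios scaling Hpgd had adjusted p = 0.0543. Same-numbered libraries did not deviate together (correlations of -0.0147, 0.00407 and -0.0215), so the numbers were not taken as pairs. The replicate block left Ptgs2, Ptges and Alox5 called and lost Ptgs1, Hpgd and Ltc4s (adjusted p = 0.0728, 0.0694 and 0.066). Pathway genes called, 21 in all, became 12 with the replicate block, 43 with library weights and 6 to 33 with 1 library left out.

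With int 2 averaged to 1 sample, added after the data were seen, limma called 0 genes, 0 members higher, 0 lower and 0 pathway genes. At an unadjusted p under 0.05 that fit had 1130 genes, among them Ptges, Alox5, Ltc4s and Ptgs2 (0.0132, 0.0208, 0.0211 and 0.0417). It takes the spread from int 3 alone. Voom on the whole fragments called 1872 genes and the same 6 members. Depth limits Alox15, Alox5 and Ltc4s most, and intervals cover counting error only.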

Other observations

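The profile neighbours of 2 more members were looked up after their values were seen. Nearest to Ltc4s were the sialyltransferase gene St6galnac2 (root mean square distance 0.0855 on the log2 scale over the 6 libraries), Etv4 (0.105) and the tuft cell channel gene Trpm5 (0.116). St6galnac2 stood at 22.0, 28.9 and 19.5 FPKM in int 3 and 40.9, 37.1 and 38.9 FPKM in int 2. Etv4 was thus near both Alox5 and Ltc4s. Nearest to Hpgd were the vitamin carrier gene Slc5a6 (0.0309), Mfge8, which encodes a bridge protein for the uptake of dying cells (0.0362), and Cyp3a13 (0.0548). Mfge8 stood at 80.8, 59.0 and 106 FPKM in int 3 and 147, 145 and 145 FPKM in int 2, and like Hpgd it was lowest in int 3-2 and highest in int 3-3 within int 3.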
